A study of Mus musculus with 11 samples.

Results

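STAT5A peaks that lie beside H3K4me3, without touching it, were described in mammary gland of wild-type mice at day 6 of pregnancy. A peak counted as flanking when it shared no base with an H3K4me3 region and when the gap from its edge to the nearest region edge on the same chromosome was at most 10 kb. On chromosomes 1 to 19 this held for 1639 of 8735 STAT5A peaks (18.8%, exact 95% interval 17.9 to 19.6). Of the other autosomal peaks, 1787 lay on a region, 3734 lay 10 to 100 kb from one and 1575 lay beyond 100 kb. The members were chosen by the positions of the peaks and regions in both deposited lists, so their number and their gaps are descriptions.

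Both libraries came from frozen whole mammary tissue of wild-type animals on the mixed background 129SV::FVB/N::C57BL/6, one precipitated with an antibody against STAT5A and the other with an antibody against H3K4me3. There was 1 library per group, so differences could not be set against the spread of replicates, and none was given a p-value. Of the 11 samples in the labels, these 2 entered the results, and the samples of day 13 and of parturition and all input libraries were not used here. The labels do not say how many animals gave the tissue. Whole tissue mixes epithelium, fat and stroma, so a peak and the region beside it need not come from the same cells. The depth of both libraries is unknown, and the tissue was not checked against marker genes because expression at day 6 was not analysed here.

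STAT5A is a transcription factor that prolactin, growth hormone and other cytokines activate through the kinase JAK2. Once phosphorylated it forms dimers, enters the nucleus and binds palindromic sites in promoters and in distal enhancers, and in the mammary gland it is required for alveolar development and milk production. H3K4me3 is a histone mark concentrated at the start sites of active and poised genes, and the DNA next to it often holds promoter-proximal and intragenic regulatory elements. The series' title asks how STAT5 recruitment and H3K4me3 are ordered in time at mammary genes. With a single stage in the peak lists, only the spatial relation is described below. Sequence and gene annotation of mm9, the mouse build of the lists, were not used here, so peaks are given by position, and no gene or binding motif is assigned to them.

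Off the H3K4me3 regions, STAT5A peaks were densest right beside them. Per Mb of positions that a peak could take at a given gap, the autosomes held 12.4 peaks at gaps under 1 kb (346 peaks, exact Poisson 95% interval 11.1 to 13.7) and 6.92 at 1 to 2 kb (187 peaks, interval 5.97 to 7.99). From there to 8 kb the density lay between 5.76 and 6.56 peaks per Mb in each 1 kb step, and it was 5.10 at 8 to 9 kb and 4.77 at 9 to 10 kb (interval 3.89 to 5.80). On the regions themselves it was 74.7 peaks per Mb (interval 71.3 to 78.3), which is the highest density of any place compared.

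Within the first kb the excess sat close to the edge of the region. Peaks with a gap under 250 bp had a density of 19.5 per Mb (139 peaks, interval 16.4 to 23.0). At 250 to 499 bp it was 14.1 (99 peaks, interval 11.4 to 17.2), and at 500 to 999 bp 7.79 (108 peaks, interval 6.39 to 9.41), which overlaps the interval of the next kb. These finer steps were chosen after the values were seen. Over all 10 kb the flanks held 6.74 peaks per Mb, against 3.63 over all autosomal positions, 5.35 at 10 to 20 kb, 4.49 at 20 to 50 kb and 1.22 beyond 100 kb. Sequence that is unassembled or cannot be aligned to was not taken out of the positions, and its part in these contrasts was not tested. The median gap of a flanking peak was 3745 bp, with quartiles of 1299 and 6473 bp. The nearest region lay at higher coordinates for 831 peaks and at lower ones for 808 (50.7% and 49.3%), so neither side of the peaks was preferred beyond counting error.

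**Figure D1:**
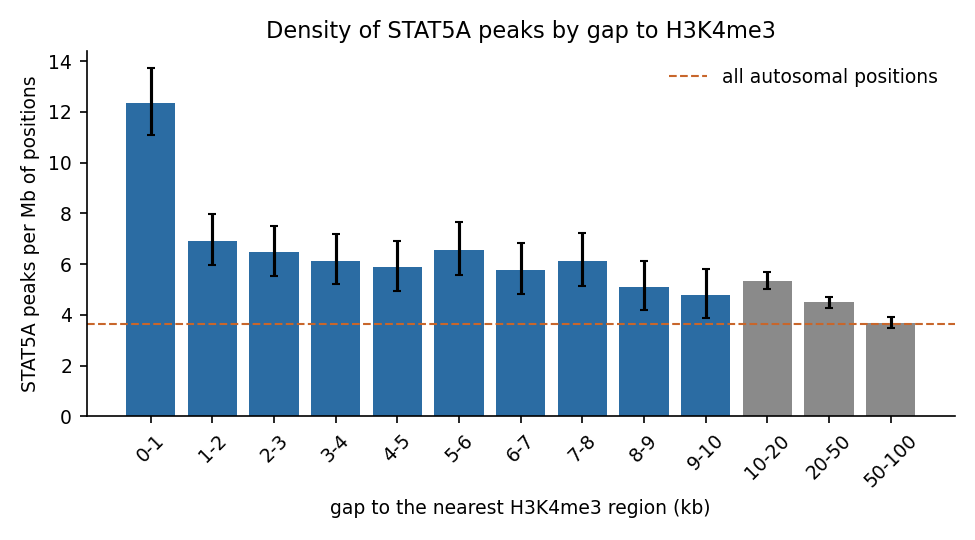
STAT5A peaks per Mb of possible peak positions (bars, vertical axis) against the gap to the nearest H3K4me3 region in kb (horizontal axis), with exact Poisson 95% intervals. Flanking peaks are blue, more distant ones grey, and the dashed line is the density over all autosomal positions, 3.63 per Mb. The first kb stands at 12.4 per Mb and the other steps up to 10 kb between 4.77 and 6.92.

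The peaks named here at the limits of the choice had scores from 4.3 to 13.2. Among the flanking peaks with the shortest gaps, the one on chromosome 8 from 114062211 to 114062425 touched its region without sharing a base and scored 8.9. Next came peaks with gaps of 1 bp, on chromosome 8 from 46707310 to 46707524 (score 7.0), and of 5 bp, on chromosome 2 from 102292335 to 102292549 (score 4.3). Just inside a region lay peaks on chromosome 12 from 71448222, on chromosome 4 from 49644158 and on chromosome 10 from 94880669, with overlaps of 2, 3 and 3 bp and scores of 4.5, 5.1 and 6.8. At the outer limit, gaps of 9975, 9994 and 10000 bp belonged to peaks on chromosomes 15, 19 and 3 that start at 97645270, 38544701 and 108725367, with scores of 6.8, 4.8 and 5.7. Just outside it, gaps of 10010, 10021 and 10024 bp belonged to peaks on chromosomes 7, 9 and 16 that start at 107297494, 101164487 and 78248394, with scores of 5.1, 8.3 and 13.2.

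Flanking peaks had higher STAT5A scores than peaks on H3K4me3 and scores near those of more distant peaks. The score is the authors' own value for each peak, its scale is not named in the sources used here, and the rule did not use it. Its median was 6.0 for flanking peaks (95% interval of the median 5.9 to 6.2, quartiles 4.9 and 8.3, range 4.3 to 55.4), the same median as over all autosomal peaks. Peaks on a region had a median of 5.4, those at 10 to 100 kb 6.4 and those beyond 100 kb 6.2. A score of at least 10 was reached by 13.9% of all autosomal peaks and by 253 of the 1639 flanking ones (15.4%, interval 13.7 to 17.3), which is close to that background. On regions the share was 5.93% (interval 4.88 to 7.13), well below the flanking interval, and at 10 to 100 kb it was 16.7% (interval 15.5 to 17.9), overlapping it. At a minimum score of 6 the intervals were apart, with 51.2% of flanking peaks (interval 48.7 to 53.6) against 55.7% at 10 to 100 kb (interval 54.1 to 57.3). At a minimum score of 20 the shares were 1.59% of flanking peaks, 0.45% of peaks on a region and 1.74% of those at 10 to 100 kb.

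High scores were less frequent among the flanking peaks nearest the region. With gaps under 500 bp, 21 of 238 peaks reached a score of 10 (8.82%, interval 5.55 to 13.2), and their median score was 5.7. At gaps of 500 bp or more, 232 of 1401 did (16.6%, interval 14.6 to 18.6), with a median of 6.2, so the counting intervals of the 2 shares were apart. This boundary was chosen after the values were seen. In steps with a first limit of 1 kb, the share was 11.8% under 1 kb (interval 8.64 to 15.7), 16.6% at 1 to 2 kb, 16.7% at 2 to 5 kb and 16.1% at 5 to 10 kb, and here the intervals overlapped. Across the 1639 peaks gap and score were almost unrelated (Spearman's rho 0.08; peaks of 1 library are not independent replicates). Peaks under 500 bp were thus both denser and lower in score than the rest of the flank, the same 2 features by which peaks on regions differed from it.

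**Figure D2:**
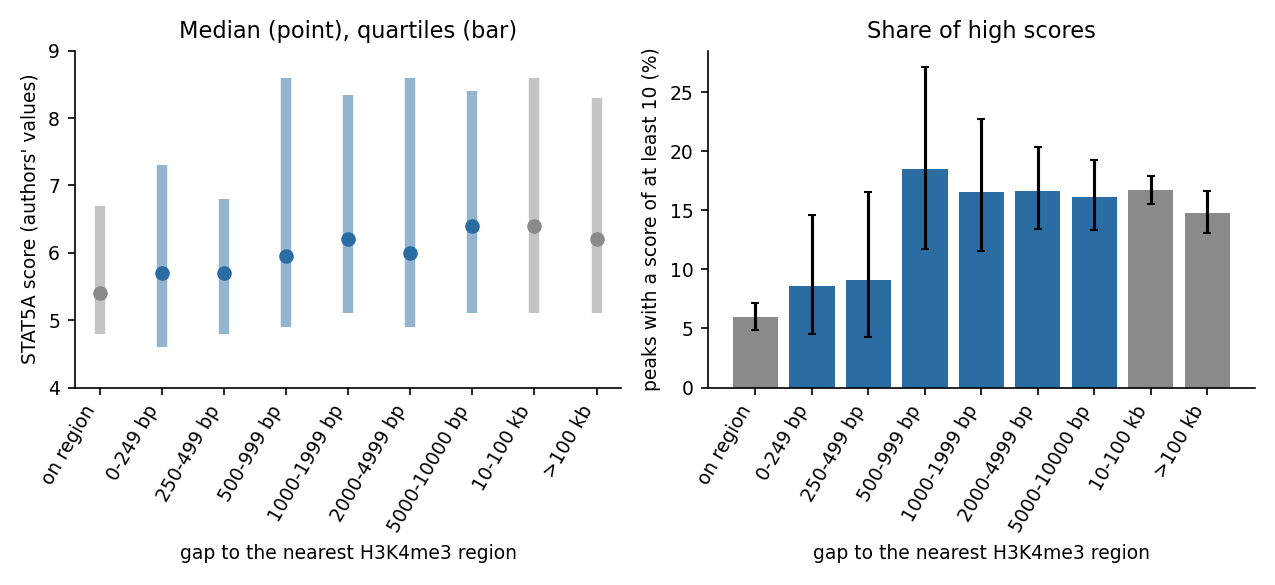
Left, median STAT5A score (points) and quartiles (bars). Right, the share of peaks with a score of at least 10, with exact 95% intervals. Both are by place relative to the nearest H3K4me3 region, with the flanking peaks in blue. Shares stand at 5.93% on regions, 8.63% and 9.09% at gaps under 250 bp and of 250 to 499 bp, and between 16.1% and 18.5% in the flanking steps from 500 bp outward.

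Flanking peaks made up a nearly even part of every level of score. When the autosomal peaks were ranked by score and divided into 10 equal groups, between 16.0% and 21.9% of each group were flanking, without a steady order. The group of highest scores, from 11.1 to 111.4, held 191 flanking peaks among 873 (21.9%, interval 19.2 to 24.8), and the group of lowest scores, from 4.3 to 4.5, held 169 among 874 (19.3%, interval 16.8 to 22.1). Of the 500 highest autosomal peaks 111 were flanking (22.2%, interval 18.6 to 26.1), and of the 10 highest 5 were (interval 18.7 to 81.3).

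The strongest flanking peak scored 55.4 and lay on chromosome 11 from 3052545 to 3052759, 3.86 kb from a region 629 bp wide. Other strong peaks followed on the same stretch of chromosome 11. One from 3096730 to 3096944 scored 49.7, and one from 3099017 to 3099231 scored 47.6. These 2 neighbours lay 2.07 kb apart, between regions 974 and 2145 bp wide. The peak from 3028277 to 3028491 scored 30.2. Chromosome 16 held the peak with the second highest score, 53.6, from 35981716 to 35981930, only 0.80 kb from a region of 1806 bp, and another with a score of 43.6, from 11144104 to 11144318, at a gap of 8.61 kb.

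On chromosome 3 a peak from 96355271 to 96355485 scored 34.9, 3.87 kb from a region of 7194 bp whose own score was 1830. The rest of the 10 highest were on chromosome 2 from 152175624 (score 26.4, gap 5.48 kb) and on chromosome 4 from 40817393 and from 118220751 (both score 26.3, gaps 6.22 and 3.42 kb). Scores thus fell from 55.4 to 26.3 within these 10. None of their nearest regions held a STAT5A peak, which was also so for 84.7% of all flanking peaks. Among flanking peaks with a score of at least 10, 17.4% had a nearest region with a peak on it (interval 12.9 to 22.6). Below that score 14.9% did (interval 13.0 to 16.8).

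Of the 10 highest, 4 lay in the first 4 Mb of a chromosome, all on chromosome 11, whereas 21 of all 1639 flanking peaks did (1.28%, interval 0.79 to 1.95). What these positions hold in mm9 was not analysed here, and the input library of day 6 was not used here, so the part that repeated sequence or copy number has in these scores was not tested. With the first 4 Mb of every chromosome left out, a limit chosen after the values were seen, 15.2% of the flanking peaks reached a score of 10, and their median score was again 6.0.

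The regions beside flanking peaks were wider than other H3K4me3 regions. The 1639 peaks had 1391 different nearest regions, out of 14296 on the autosomes. The median width of these was 1537 bp (95% interval of the median 1472 to 1590), against 1323 bp for all autosomal regions and 1306 bp for the 12905 regions that were nearest to no flanking peak. More than 2 kb wide were 29.5% of them (interval 27.1 to 31.9), against 19.4% of all regions. At the lowest width, 501 bp, were 139 of them (9.99%, interval 8.47 to 11.7), against 10.8% of all regions. Their median H3K4me3 score was 244, against 216 for all autosomal regions.

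In 10 equal width groups, the share of regions with a flanking peak was lowest in the second narrowest (501 to 766 bp) and highest in the widest. Regions of 501 bp numbered 1551 and were cut in genome order, so some fell in that second group. The share was 9.16% in the narrowest group, where all regions had 501 bp (131 of 1430, interval 7.72 to 10.8). It was 6.92% in the next (99 of 1430, interval 5.66 to 8.36). It stayed between 7.42% and 8.25% in the next 4 groups and came to 9.58%, 11.3% and 13.5% in the 3 after those. In the widest, from 2430 to 17500 bp, it was 15.7% (224 of 1429, interval 13.8 to 17.7). The sequence available beside a region hardly differed, with a mean of 16.2 kb of positions per region in the narrowest group and 17.1 kb in the widest. Per Mb of these positions the flanks held 7.11 peaks in the narrowest group (interval 6.07 to 8.28), 4.93 in the next (interval 4.07 to 5.92) and 11.3 in the widest (interval 9.97 to 12.7).

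The score of a flanking peak did not follow the size of its region. Spearman's rho across the 1639 peaks was -0.04 with the width and -0.04 with the H3K4me3 score of the nearest region. Regions beside a flanking peak with a score of at least 10 had a median width of 1507 bp (234 regions, interval of the median 1309 to 1628), and those beside a peak of lower score 1540 bp (1211 regions).

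A STAT5A peak on the region itself was more common where another peak flanked it, but about as common beside peaks at 10 to 100 kb. Of all autosomal regions 12.0% held a STAT5A peak. Of the 1391 regions nearest to a flanking peak 209 did (15.03%, interval 13.2 to 17.0), and of the regions nearest to none 11.6% (interval 11.1 to 12.2). Wide regions hold peaks more often, and if each of the 1391 regions had held one at the rate of its width group, 184 would have done so (13.2%, at the lower bound of that interval). Counted by peak, 250 of the 1639 flanking peaks had a nearest region with a STAT5A peak on it (15.3%, interval 13.5 to 17.1). For peaks at 10 to 100 kb the share was also 15.3% (573 of 3734, interval 14.2 to 16.5), and beyond 100 kb it was 12.6% (199 of 1575, interval 11.03 to 14.4). Among peaks with a score of at least 6, where 4.45% of all regions held one, the shares were 8.22% for flanking peaks (interval 6.45 to 10.3), 7.41% at 10 to 100 kb (interval 6.32 to 8.62) and 5.63% beyond 100 kb (interval 4.18 to 7.39). Most flanking peaks, 1389 of 1639, lay beside an H3K4me3 region without a STAT5A peak of its own.

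In 9 of the 10 width groups regions holding a peak were flanked more often than regions holding none, but the intervals were apart only in the narrowest. There 10 of 46 regions with a STAT5A peak were flanked (21.7%, interval 10.9 to 36.4), against 121 of 1384 without (8.74%, interval 7.31 to 10.4). That group took its regions in genome order from the 1551 at 501 bp, of which 53 held a STAT5A peak. The gap between the intervals was narrow, and whether it holds with another cut was not tested. In the widest group the shares were 16.1% and 15.5%.

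**Figure D3:**
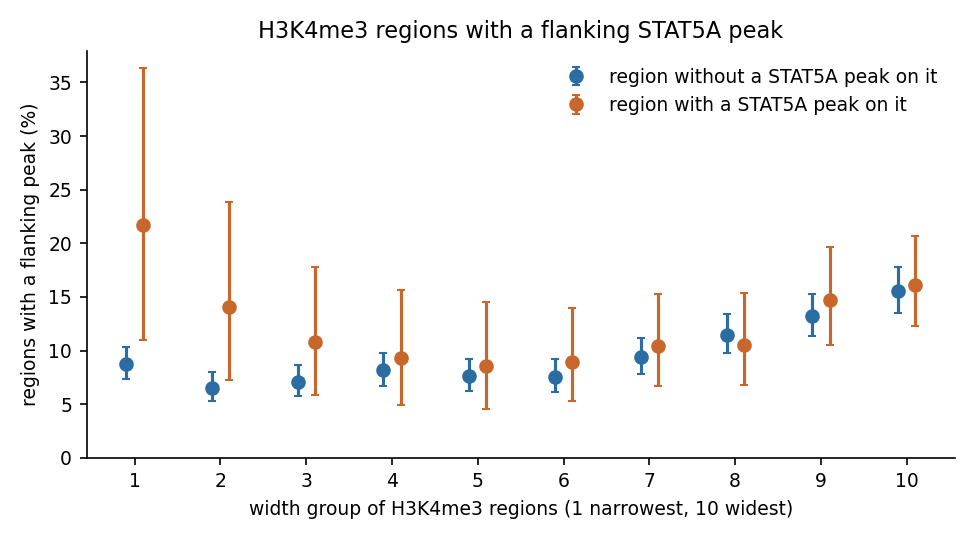
Share of H3K4me3 regions that are nearest to a flanking STAT5A peak (vertical axis, %, with exact 95% intervals) in 10 equal groups of region width (horizontal axis). Orange points are regions that also hold a STAT5A peak, blue points are regions that hold none. Blue points run from 6.51% in the second group to 15.5% in the widest, and the orange intervals overlap the blue ones in all groups except the narrowest.

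Where a region had both kinds of peak, the flanking one scored higher in somewhat more cases at the gap limit of 10 kb. Among the 209 such regions the best flanking peak scored above the best peak on the region in 115, below it in 82 and equal to it in 12. With ties counted, the flanking peak was higher in 55.02% (interval 48.0 to 61.9), and with ties left out in 58.4% of 197 (interval 51.2 to 65.3). At a gap limit of 5 kb, with ties counted, it was higher in 49.6% of 133 regions (interval 40.8 to 58.4). That interval overlaps the one at 10 kb, and ties were not counted apart at 5 kb. The median score was 6.7 for the best flanking peak and 5.6 for the best peak on the region. Among the 170 regions with exactly 1 peak of each kind, the flanking peak was higher in 94, lower in 66 and equal in 10. The median difference of 0.4 over the 209 regions was small beside its quartiles of -0.8 and 2.6.

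Flanking peaks had STAT5A neighbours more often than peaks elsewhere. Another STAT5A peak lay within 10 kb of 664 of the 1639 (40.5%, interval 38.1 to 42.9), against 25.2% of peaks on a region, 29.8% at 10 to 100 kb and 21.8% beyond 100 kb. The median gap to the next peak was 16.8 kb for flanking peaks and 27.2 kb for those at 10 to 100 kb. For 378 of the 664 the nearest neighbour was another flanking peak (56.9%), for 221 a peak on a region (33.3%) and for 65 a peak farther out (9.79%). When peaks on regions were not counted as neighbours, 476 of the 1639 had one within 10 kb (29.0%, interval 26.9 to 31.3), against 29.8% at 10 to 100 kb (interval 28.4 to 31.3). Flanking peaks are close to H3K4me3 by definition, so of these 2 places only they lost neighbours in this step. At 10 to 100 kb 1114 of 3734 peaks had a neighbour in both counts. The level shares therefore do not test what carried the difference. A neighbour within 10 kb was present for 125 of the 253 flanking peaks with a score of at least 10 (49.4%, interval 43.1 to 55.7) and for 38.9% of the 1386 with a lower score (interval 36.3 to 41.5).

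**Figure D4:**
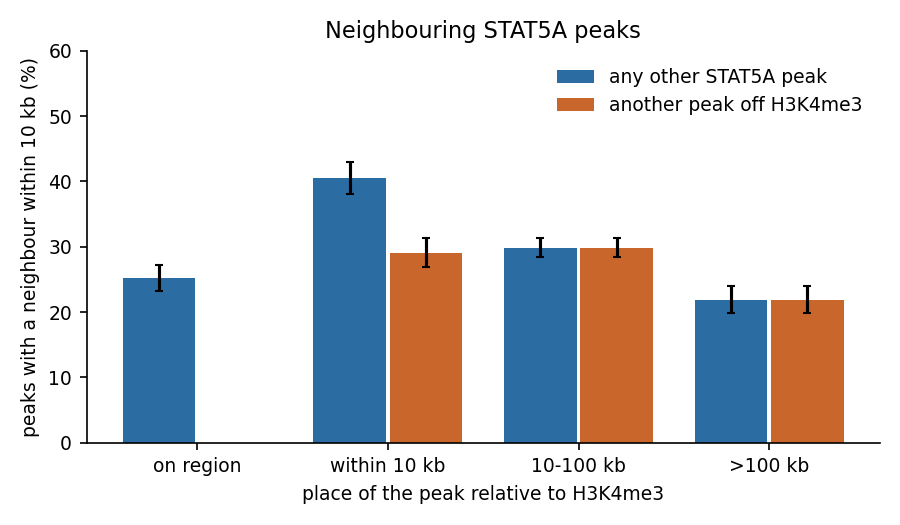
Share of STAT5A peaks with a neighbour within 10 kb (vertical axis, %, with exact 95% intervals) by place relative to H3K4me3 (horizontal axis). Blue bars count any other STAT5A peak and orange bars only other peaks off H3K4me3, which are not shown for peaks on a region. Flanking peaks stand at 40.5% in blue and 29.0% in orange, the latter level with the 29.8% of peaks at 10 to 100 kb.

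Several flanking peaks at 1 region stood on the same side more often than on opposite sides. Of the 1391 regions, 1195 were nearest to 1 flanking peak, 157 to 2, 27 to 3, 11 to 4 and 1 to 5. The 196 regions with at least 2 accounted for 444 of the flanking peaks (27.1%), and 81 regions had peaks on both sides, of which 15 also held a STAT5A peak. Among the 157 regions with exactly 2 peaks, both lay on the same side in 102 (65.0%, interval 57.0 to 72.4) and on opposite sides in 55. Peaks placed independently on equal sides would give 50%. STAT5A peaks also had close neighbours away from the regions, with 29.8% at 10 to 100 kb having 1 within 10 kb. The part that the region has in the same-side share was not tested. In the 103 of these regions that had no other region close enough to shorten either flank, 67 had both on the same side (65.0%, interval 55.02 to 74.2). Peaks on the same side were a median of 2275 bp apart, with quartiles of 1093 and 3976 bp. Linked by gaps of at most 10 kb, the flanking peaks formed 1228 single peaks, 149 pairs, 24 chains of 3, 9 of 4 and 1 of 5.

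The region with the most flanking peaks was on chromosome 13 from 102315597 to 102316097, 501 bp wide with a low H3K4me3 score of 41.0. All 5 of its peaks lay on the side of lower coordinates, within 7.45 kb, and they made up the chain with the most peaks. Starting at 102307584, 102308545, 102309323, 102310752 and 102314817, they scored 6.0, 4.3, 11.3, 10.3 and 6.2. This chain thus stood beside a region at the lowest width in the list.

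A much wider region, on chromosome 3 from 96359357 to 96366550, had 4 flanking peaks and none on it. Its strongest, with the score of 34.9 given above, stood 3.87 kb away on the side of lower coordinates, followed on that side by peaks at gaps of 3.29 and 0.20 kb with scores of 6.2 and 7.2. On the other side a peak with a score of 6.7 stood at 1.497 kb. These 4 peaks spanned 12.99 kb. On chromosome 13 the region from 23555547 to 23557867, 2321 bp wide, had 3 peaks on one side, with scores of 5.1, 10.2 and 6.2 at gaps of 3.87, 3.15 and 2.70 kb, and 1 on the other with a score of 25.9 at 5.72 kb. In both cases 1 strong peak stood among weaker ones.

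A more even pattern was seen on chromosomes 17 and 14, where 2 peaks lay on each side of a region. Around the region on chromosome 17 from 49567693 to 49568854, which held no STAT5A peak, the scores were 10.7, 8.6, 7.5 and 11.8, at gaps of 4.05, 3.35, 0.16 and 6.55 kb. The region on chromosome 14 from 32246953 to 32249630 had flanking scores of 6.0, 11, 9.7 and 9.4, at gaps of 4.85, 0.20, 2.80 and 7.36 kb. It was the only one of these 5 regions that also held a STAT5A peak. Another chain of 4 peaks was found on chromosome 7 from 38974025 to 38986279, with scores from 10.7 to 17.3. It lay beside 2 regions of 501 bp whose H3K4me3 scores were 23.4 and 29.6.

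**Figure D5:**
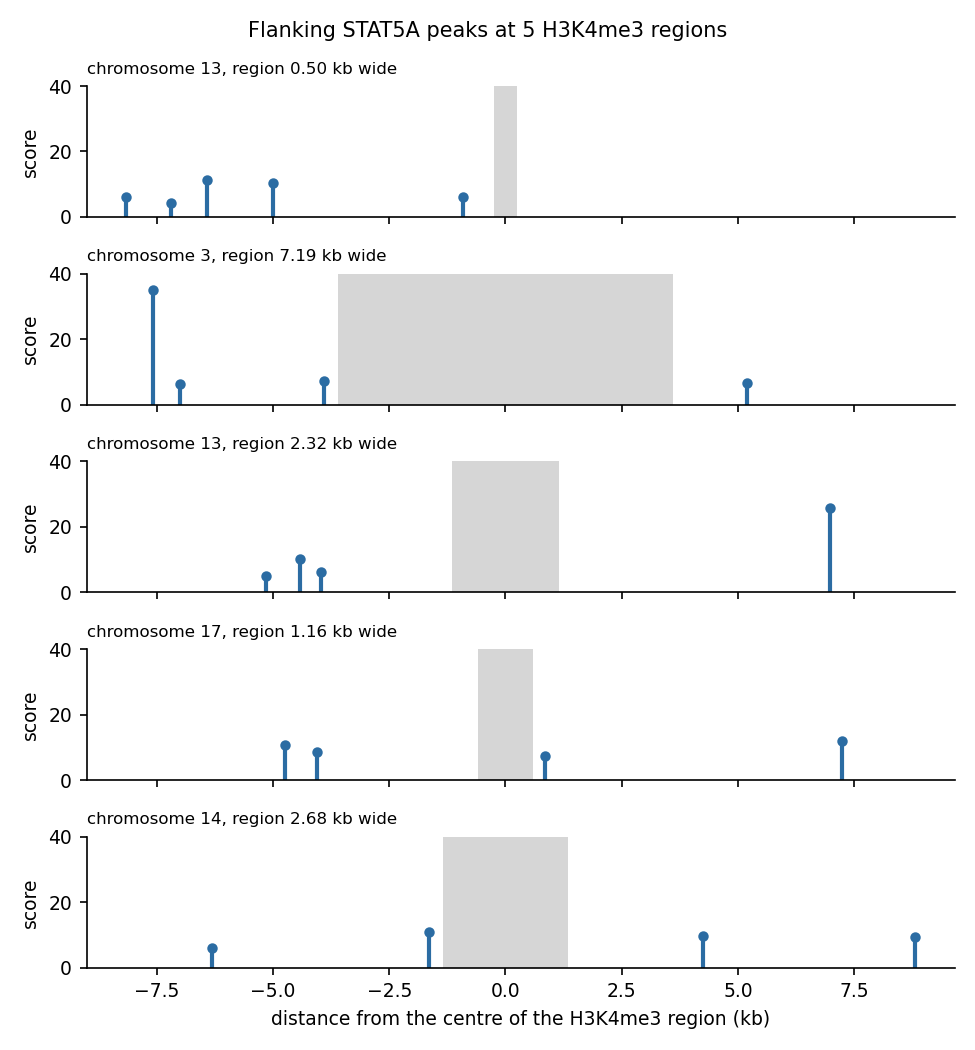
The 5 H3K4me3 regions with the most flanking STAT5A peaks, drawn to scale. The grey band is the region, each blue line is a flanking peak at its distance from the centre of the region (horizontal axis, kb), and its height is the STAT5A score (vertical axis). All 5 peaks at the top region stand on one side, and scores of 34.9 and 25.9 stand out at the regions of 7194 and 2321 bp.

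Flanking peaks were found on all 19 autosomes. Chromosome 11 had the most, 158, which was 24.6% of its STAT5A peaks (interval 21.3 to 28.1) and above the 18.8% of all autosomes together. Chromosomes 16 and 18 had the fewest, 49 each, and on chromosome 16 they were 15.1% of the peaks (interval 11.4 to 19.5). Per 100 H3K4me3 regions the number ran from 9.15 on chromosome 10 to 13.7 on chromosome 13, with 12.8 on chromosome 11, which has 1235 regions. Median scores per chromosome lay between 5.7 on chromosomes 15 and 17 and 7.2 on chromosome 18.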

How the data were processed

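STAT5A and H3K4me3 ChIP-seq of mammary tissue at day 6 of pregnancy was used, 1 library each. The deposited lists give the position and a score of every peak or region. The score is the authors' own value on a scale not given in the sources used here. It served only within its own list. CASAVA, Bowtie and HOMER, and the mouse build mm9, appear in the submitters' processing notes. Not given in the sources used here are tool versions, peak settings and any use of an input. Expression values were not used, since that table gives no positions.

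Each peak was 215 bp wide and was assigned to its nearest region from the edges (Python 3.11.15, pandas 2.3.3, scipy 1.17.1). The assignment was tested on simulated data and equalled that of bedtools. One shared base put a peak on a region. Positions available at a gap were counted between the first and last coordinate of each chromosome in either list, with no sequence in between taken out. Intervals of 95% are Clopper-Pearson for shares, exact Poisson for densities and from order statistics for medians. All cover counting error only and take peaks as independent. The peaks named are the 10 with the highest score and 3 at each limit. The regions named are the 5 with the most flanking peaks. Of regions flanked on both sides, the 3 with the highest summed score are among these 5, and the 3 chains with the most peaks are also named. Members, lists and measures were chosen with earlier results of these data known. Coordinates count from 1.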

Additional observations from a re-analysis of the deposited data

How the results depend on the processing

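Of 64 values, 8 results under each of 8 alternatives, 52 stayed within counting error of the value given (numbers of peaks or regions: within 1.5 times) and 12 moved. Nothing moved when 50% of a peak had to lie on a region, when chromosome X was included, when gaps ran from the peak centre, or when the first 4 Mb of each chromosome were left out (added after seeing the data). A gap limit of 5 kb gave 1001 flanking peaks and 38 regions flanked on both sides. A limit of 20 kb gave 2610 and 149, and 37.2% of peaks with a neighbour within 10 kb. Only peaks with a score of at least 6 gave 839 flanking peaks and 31 regions flanked on both sides, a median score of 8.3 and 30.2% with a score of at least 10. With that minimum 29.4% had a neighbour within 10 kb, against 15.7% of peaks on a region and 24.1% at 10 to 100 kb. A nearest region with a peak on it was found for 8.22% of flanking peaks, against 7.41% at 10 to 100 kb. Counted by region, 7.56% of the 741 regions nearest to a flanking peak held a peak, against 4.45% of all regions. Without regions of the lowest width the nearest regions had a median width of 1638 bp. Some shifts are fixed by the changed limits, such as the numbers of flanking peaks and the scores under a minimum of 6. What carried the other shifts was not tested. No paired analysis was possible because each group held 1 library. Depth is unknown, and peaks below the authors' threshold were not analysed here.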

Other observations

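Some flanking peaks lay in the space between 2 H3K4me3 regions, both at most 10 kb away. There were 151 of them (9.21%, exact 95% interval 7.86 to 10.7), and the 2 regions around such a peak were a median of 7989 bp apart. Their median score was 5.7, against 6.0 for the 1488 flanking peaks with a single region in reach, and 17.9% of them had a score of at least 10 (interval 12.1 to 24.9), against 15.2% (interval 13.4 to 17.1). The intervals of these shares overlapped. Neighbouring flanking peaks within 10 kb of each other were paired where at least 1 was the nearest STAT5A peak of the other. Of these 213 pairs, 200 shared their nearest region. The scores of the 2 peaks were almost unrelated (Spearman's rho 0.09, given as a description because the pairs come from 1 library).

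Within 100 kb to either side, flanking peaks had a median of 3 H3K4me3 regions (quartiles 2 and 5). Peaks on a region had a median of 4, their own included, and peaks at 10 to 100 kb a median of 2.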
